A study of Drosophila melanogaster with 6 samples.

Results

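On an expression array a probe set normally reports on 1 gene, but some probe sets are assigned to several genes, so that their signal cannot be given to any one of them. Of 18952 probe sets on the Affymetrix arrays of this study, 183 were controls and 402 had an annotation that named 2 or more gene symbols. The 220 of these whose mean intensity over the 6 arrays was over 50 are described here, and 182 were not over it. The members were chosen by their mean intensity over all arrays and by their annotation, and the difference between diets was not used. The members with means closest to 50 were CG33722/CG18749 (50.1) and seq/Kdm4B/CG17724 (52.1), and those just left out were CG17715/CG31178 (49.9) and CG43675/CG33937/drn (48.8). Genes that share a probe set are written here with a stroke between their symbols.

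The arrays measured heart/nephrocyte complexes of adult female Drosophila melanogaster. The heart of the fly is a contractile tube, flanked by pericardial nephrocytes that filter the hemolymph and take up its proteins. For 21 days the females ate food to which either glucosamine (0.1 M, the glucosamine group) or sucrose (1.0 M, the sucrose group) had been added. Each group had 3 arrays, and no genotype or strain was stated. Each difference is between these diets only, as flies on unsupplemented food were not analysed here. The labels name 30 females without saying whether each array had its own, and the p-values therefore reflect the spread among these arrays, possibly a technical one.

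Genes come to share a probe set in a few ways. In the fly, some pairs of proteins are encoded one after another on a single transcript, as with alcohol dehydrogenase and its relative Adhr, so that a probe in the common RNA detects both. Other genes lie in the intron or on the ends of a neighbour. Recently duplicated genes, such as those of Hsp70, histones and Stellate, have nearly the same sequence and cannot be separated by short probes. Where the probes detect several of the RNAs, the intensity is a sum over transcripts, and a change in it does not say which RNA changed. An annotation that names several genes does not show that the probes detect each of them. The lcs/sesB probe set had a mean of 52.4, while a probe set of sesB alone had 18222.

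By RefSeq positions, 85 members named genes with the same start and end, as is usual for genes encoded on a common transcript. A further 28 named a gene that lay inside another, 9 named genes that overlapped in part, and 39 named genes with no other gene between them. The genes lay apart on the same chromosome for 37 members and on different chromosomes for 17, and for 5 fewer than 2 genes were matched. The members named 442 different symbols in 194 different combinations. Of them 203 named 2 symbols, 13 named 3 or 4, and 4 named more than 4, up to 20 copies of histone H2A. The suffix _s, which Affymetrix gives to probe sets that match several transcripts, was carried by 41.8% of the members and by 14.4% of the tested probe sets with 1 symbol. Another 45% of the members had a plain name with no such suffix, so the name of a probe set did not show the sharing.

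The labelled tissue was checked against marker lists, and some lists moved with the arrays. Of 8 nephrocyte markers on the array all had a mean over 50, 7 were lower after glucosamine and none were higher, and their summed intensity was 6688 to 8417 in the glucosamine and 23657 to 38527 in the sucrose arrays. In bulk tissue fewer cells of a type and less RNA per cell cannot be told apart. Of 9 heart markers on the array 4 had a mean over 50, 1 was lower, and their sum was 9767 to 11829 against 14910 to 18975. Most of this sum was Hand, the 1 that was lower, with 7976 to 9942 against 12941 to 16538. The heart markers tup, svp and H15 had log2 differences of −0.18, 0.04 and −0.0003 and were not called, so the list did not move as a whole. Among other cells, the summed ovary markers were 7868 in sucrose replicate 1 and 351 to 1185 in the other 5 arrays. Of 9 ovary markers on the array 3 had a mean over 50, and none were called. The germ cell marker vas was at 5.36 to 5.91 in all arrays, at the bottom of the scale, while osk was at 6355 in sucrose replicate 1. Summed midgut and hindgut markers were 12053 in glucosamine replicate 3 and 3410 to 5482 in the others, with 5 of 8 over a mean of 50, 1 lower and none higher. The part of these cells in the results below was not tested. The upper quartile of intensity was 222 to 237 in the 6 arrays.

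Of the 220 members, 28 were higher and 27 lower after glucosamine at an adjusted p of 0.05. Over all 7660 probe sets in the same fit 26.4% were called in either direction, 13.6% higher and 12.8% lower, while 25% of the members were called. The members' share was thus near the background and is no result about shared probe sets. The groups did not overlap for 93 members, or 42.3%, and for 46% of all probe sets tested. The median log2 difference was −0.11 over the members and −0.04 over all probe sets tested. Of the calls 17 were rises and 12 were falls of over 2-fold. Leaving out glucosamine replicate 1 lowered the 27 falls to 15 and leaving out glucosamine replicate 3 together with sucrose replicate 1 lowered them to 7, where the 28 rises were 17. A call was kept for 31 of the 55 members with every single array left out in turn. The smallest two-sided p of an exact permutation test with 3 arrays a group is 0.1, and smaller p-values therefore rest on the model of limma. That model shares variance across probe sets, and how far the calls depend on this sharing was not tested. Of the members 201 had both group means over 50, and 19 had passed the mean through 1 group only, of which 10 were called. For those a difference was partly set by the choice, and their calls below support nothing by themselves. They were ovm/CG31975, CG30160/Tsp42Eb, the CG43998/CG43999 probe set 1630615_s_at, DIP-epsilon/scu, CG34164/RpL7-like, CG42727/CG42726, Tcs1/Polr3K and CG33981/fab1, which passed through glucosamine, and CG10731/sotv and Atx-1/xit, which passed through sucrose.

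Among genes with the same RefSeq span 16 of 85 members rose and 10 fell. That was 30.6% called, beside 26.4% of all probe sets tested, and whether the kinds of sharing differed in this share was not tested. The largest difference was that of ovm/CG31975, which passed the mean through the glucosamine group only, with intensities of 180.9, 260.3 and 370.4 in the glucosamine arrays against 17.4, 17.0 and 17.1 in the sucrose arrays. Every glucosamine array was far above the sucrose arrays, which were near the bottom of the scale. The log2 difference was 3.06 ± 0.25 (SE; limma adjusted p = 0.00112) after adding 16 to each intensity, which makes the differences of dim probe sets smaller.

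Mocs2A and Mocs2B encode the small and large subunits of molybdopterin synthase, the enzyme that makes the molybdenum cofactor. Their probe set had intensities of 642.8, 673.4 and 757.3 after glucosamine and 218.3, 229.1 and 281.6 after sucrose. The groups were tight and well apart, and the log2 difference was 1.45 ± 0.16 (SE; adjusted p = 0.00239). Tpt, which encodes a tRNA phosphotransferase, shares its span with mkg-p. Their probe set 1622892_s_at rose from 170.9 ± 22.4 to 739.9 ± 86.4 (SD, n = 3 each; log2 difference 2.02; limma adjusted p = 0.00112). A second probe set of the same pair, 1635157_at, rose from 877.6 ± 27.7 to 2580 ± 452 (SD, n = 3 each; log2 difference 1.52; limma adjusted p = 0.00253). Both probe sets of Hez/CG6709 rose, by 1.97 and 1.78 on the log2 scale, and both of CG43998/CG43999 did, by 2.12 and 1.86. The CG43998/CG43999 probe set 1630615_s_at had 127.9, 75.8 and 161.3 against 9.43, 19.7 and 15.7, so that its sucrose values were near the bottom of the scale.

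Smaller rises on common spans were those of CG42487/CG4884 (1.19), CG42372/CG30100 (1.11), CG44000/CG33995/CG44001 (0.96), CG42727/CG42726 (0.95) and CG33981/fab1 (0.87). The gene fab1 encodes a lipid kinase of endosomes. Tcs1/Polr3K, of a tRNA modification enzyme and an RNA polymerase III subunit, rose by 0.91 ± 0.18 (SE; limma adjusted p = 0.0123). These 6 members and Mocs2A/Mocs2B were named after their values were seen, to account for the calls on common spans.

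The largest fall among the members past the threshold was on a common span. CG30503/kappaB-Ras, the second of which encodes a small Ras-like GTPase, had 711.2, 1156 and 1122 in the glucosamine arrays and 3170, 5353 and 5031 in the sucrose arrays on the probe set 1636217_at. The lowest sucrose array was 3170, above the highest glucosamine array. The log2 difference was −2.16 ± 0.28 (SE; limma adjusted p = 0.00351). Fuca, which encodes the lysosomal enzyme alpha-L-fucosidase, shares a span with CG11714. Their probe set had 3179, 3321 and 2857 against 11652, 9681 and 12397, and fell by 1.84 ± 0.16 on the log2 scale (SE; limma adjusted p = 0.00119). Both of its groups were narrow, and it passed the threshold in all 17 alternatives.

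Dpm2/CG12016 fell from 3745 ± 812 to 1550 ± 224 (SD, n = 3 each; log2 difference −1.25; limma adjusted p = 0.00789). Dpm2 encodes a subunit of the enzyme that makes the mannose donor used in the endoplasmic reticulum. CG43346/CG43345 fell by 1.03 on the log2 scale. CG6000 with the long noncoding RNA CR44097 fell by 0.82, and the fall of Adh/Adhr is given below. The remaining falls on common spans, named after their values were seen, were CG34310/cup (−0.83), fabp/sea (−0.78), CG42558/CG42557 (−0.71) and CG42374/Mettl5 (−0.62). The gene cup encodes a translational repressor of the germ line, fabp a fatty acid binding protein, sea the mitochondrial citrate carrier and Mettl5 a ribosomal RNA methyltransferase. CG34310/cup had 336.2, 405.6 and 413.1 against 699.6, 753.1 and 634.3. Whether ovary cells had a part in its values was not tested.

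Neighbouring genes that share a probe set gave the largest rise among all members. Mettl4, which encodes an adenine methyltransferase, lies next to CG14907. Their probe set 1627183_at had intensities of 2280, 2881 and 2155 after glucosamine and 114.2, 84.9 and 146.7 after sucrose. The glucosamine arrays were far brighter than the sucrose arrays, with no overlap. The log2 difference was 4.24 ± 0.22 (SE; limma adjusted p = 0.000225), or 18.9-fold on the scale of the test. A second probe set, 1623569_at, had 1516, 2481 and 1797 against 376, 458.8 and 641, a log2 difference of 1.94 ± 0.26 (SE; limma adjusted p = 0.00382). Both probe sets rose and their groups did not overlap, but by different amounts.

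Other neighbours that rose were CG18858/CG31683 (0.89), CG32641/CG32640 (0.81) and IFT54/red (0.72), and IFT54 belongs to the transport machinery of cilia. Of the neighbours that fell, CG32817/CG3176 had 133.1, 174.4 and 110.5 against 321.7, 323 and 571.3 (log2 difference −1.41 ± 0.27, SE; limma adjusted p = 0.0117). The gap to the glucosamine arrays was wider for sucrose replicate 3 than for the other 2 sucrose arrays. Atx-1/xit fell by 0.92, Pgd/D2hgdh by 0.91, ScpX/CG17597 by 0.87, CG10731/sotv by 0.83 and Edem1/CG32801 by 0.78. Pgd encodes a dehydrogenase of the pentose phosphate pathway and D2hgdh the dehydrogenase that removes hydroxyglutarate, while ScpX encodes a peroxisomal thiolase. The gene sotv encodes a polymerase of heparan sulfate, and Edem1 acts in the degradation of glycoproteins of the endoplasmic reticulum. All but CG32817/CG3176 were named after their values were seen.

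Of the 37 members with nested or partly overlapping genes, 1 rose and 4 fell. The share called was 14.3% of the nested and 11.1% of the partly overlapping, beside 26.4% of all probe sets tested. Coq4, of ubiquinone synthesis, and frc, one of which lies inside the other in RefSeq, share a probe set, and frc encodes a Golgi transporter of nucleotide sugars. This probe set, 1640286_at, had 85.7, 170.6 and 112.2 after glucosamine and 272.8, 506.4 and 380.4 after sucrose, a log2 difference of −1.54 ± 0.30 (SE; limma adjusted p = 0.0118). Each sucrose array lay above every glucosamine array. CG42514/CG43373 fell from 1868 ± 309 to 852.5 ± 109 (SD, n = 3 each; log2 difference −1.11; limma adjusted p = 0.00792). CG9515/Argl, the second of which encodes argininosuccinate lyase, fell by 1.09 ± 0.21 (SE; limma adjusted p = 0.0111). CG18809/COX6B, of a subunit of respiratory complex IV, fell by 0.55 (limma adjusted p = 0.0387) and passed in 8 of 17 alternatives, in none of them with 1 array left out. CG34164/RpL7-like rose by 1.05 (limma adjusted p = 0.0239) and passed in 12 of 16 alternatives. It passed the mean through the glucosamine group only (106.5 against 44.1), so these passes do not support its direction.

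Members whose genes lie apart or on different chromosomes gave 5 rises and 7 falls among 54. The share called was 16.2% of those apart and 35.3% of those on different chromosomes, beside 26.4% of all probe sets tested. The mod(mdg4)/CG6066 probe set had 623.4, 354.1 and 677.2 against 63.8, 79.8 and 39.6, a log2 difference of 2.86 ± 0.31 (SE; limma adjusted p = 0.00216). The gene mod(mdg4) encodes a chromatin protein with many isoforms made by trans-splicing. Lfg/TTLL3B, of a membrane protein related to Bax inhibitors and a tubulin glycylase, rose by 2.75 ± 0.52 (SE; limma adjusted p = 0.0112). Its glucosamine arrays had 1102, 847 and 962.3 and its sucrose arrays 101.7, 58.6 and 336.3, so that sucrose replicate 3 lay higher than the other 2. CG30160/Tsp42Eb, the second of which encodes a tetraspanin, had 157.2, 157 and 137.7 against 49.2, 6.11 and 11.3 (log2 difference 2.29; limma adjusted p = 0.00774).

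Qtzl/escl rose by 0.96 ± 0.17 (SE; limma adjusted p = 0.00899), where Qtzl is a young chimeric gene with sequence of escl, a Polycomb group gene. BaraC/fzr, the second of which encodes an activator of the anaphase-promoting complex, fell from 405.2 ± 83.7 to 155.9 ± 31.8 (SD, n = 3 each; log2 difference −1.29; limma adjusted p = 0.00766). ATPsynG/beat-Vb, of an ATP synthase subunit and a neuronal membrane protein, fell by 0.59 (limma adjusted p = 0.0290) and passed in 9 of 17 alternatives. The other calls were the falls of Cyp12d1-d/Cyp12d1-p, arg/svr/CG17896/CG18273, a histone H4 probe set, CG10038/Eip63E and zetaCOP/CG5946 and the rise of DIP-epsilon/scu, all given below. CG17618/CG45049, for which fewer than 2 genes were matched, rose by 0.90.

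For 24 combinations of genes 2 or 3 shared probe sets passed the mean, 50 in all. They showed how far probe sets that name the same genes repeat each other. The sign was the same within all 24 combinations. In 4 of them every probe set was called, in 12 none was, and in 8 some were and others were not. Some of these signs were partly set by the choice of members. Both probe sets of CG42662/CG30080 passed the mean through the glucosamine group only. So did 1630615_s_at of CG43998/CG43999, a combination with every probe set called. The mod(mdg4) probe set 1628921_s_at passed it through the sucrose group only. The gap between the highest and lowest log2 difference of a combination had a median of 0.26 and reached 2.30 for CG14907/Mettl4. Whether the gap differed from the spread of the arrays was not tested.

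Of the 8 combinations with some probe sets called, CG30503/kappaB-Ras had the widest gap (1.72), followed by Adh/Adhr (1.68). Adh encodes alcohol dehydrogenase, which is abundant in fat body and gut, and Adhr a related protein translated from the same transcript. The probe set 1632699_s_at had 366.7, 461.1 and 446.5 after glucosamine and 1085, 1365 and 1876 after sucrose, a fall of 1.70 ± 0.23 on the log2 scale (SE; limma adjusted p = 0.00382). The probe set 1631333_s_at had 32392, 31683 and 33804 against 32138, 34947 and 31952, a log2 difference of −0.02 ± 0.14 (SE; limma adjusted p = 0.945). It was the brightest of all members, with a mean of 32819, and its groups overlapped. The brightest probe set of an array was at 43475 in sucrose replicate 2, the lowest of the 6 arrays in this respect, and whether the Adh/Adhr probe set was saturated was not tested. The second probe set of CG30503/kappaB-Ras differed by −0.44 (limma adjusted p = 0.170) against −2.16, and that of Coq4/frc by −0.05 (limma adjusted p = 0.876) against −1.54. Of 3 probe sets of Pif1A/Pif1B, 2 rose, by 0.97 and 0.90, and the other differed by 0.27 (limma adjusted p = 0.381). Of the 2 probe sets of Edem1/CG32801, 1 fell by 0.78 and the other differed by −0.31 (limma adjusted p = 0.145).

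For 52 members at least 1 of their genes also had a probe set of its own over the mean, 89 pairs in all, and for 168 it had not. Of the 55 called members 12 had such a probe set, with 24 pairs, and 43 had none, so that for those no gene could be named from these arrays. In the 24 pairs the sign was the same in 12 and opposite in 12. Of these 10 came from mod(mdg4), and without that gene it was the same in 10 of 14. The single-gene probe set was called the same way in 5 pairs, the opposite way in 3, and not called in 16.

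None of the 10 probe sets of mod(mdg4) alone passed the threshold. Their log2 differences ran from −0.51 to 1.46, 8 of them below 0, with limma adjusted p from 0.0604 to 0.841, beside 2.86 for the probe set shared with CG6066. The mod(mdg4) probe sets shared with pre-mod(mdg4)-T and pre-mod(mdg4)-Z, which hold exons spliced to it from elsewhere, differed by −0.14 and −0.27 and were not called. The value of 1.46 rested on glucosamine replicate 2, at 1021 against 41.0 to 87.4 in the other arrays. No probe set of CG6066 alone was over the mean.

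The called pairs with opposite directions concerned 3 genes. The gene scu encodes a mitochondrial hydroxysteroid dehydrogenase, and its own probe set had 1224, 1380 and 1199 after glucosamine against 1947, 2675 and 2146 after sucrose, a log2 difference of −0.81 ± 0.18 (SE; limma adjusted p = 0.0165). The probe set it shares with DIP-epsilon, a cell surface protein of neurons, had 115.5, 130.9 and 99.36 against 38.37, 64.85 and 35.15 and rose by 1.10 ± 0.22 (SE; limma adjusted p = 0.0128). The groups did not overlap in either probe set, but the shared one passed the mean through the glucosamine group only (115.3 against 46.1), so its direction was partly set by the choice. Eip63E, of a cyclin-dependent kinase, rose alone by 0.64 (limma adjusted p = 0.0487) and fell with CG10038 by 0.54 (limma adjusted p = 0.0387). The probe set of arg, svr, CG17896 and CG18273, which fell by 1.23 ± 0.26 (SE; limma adjusted p = 0.0154), named genes that went both ways: CG17896 alone fell by 0.91, CG18273 alone rose by 1.36, and arg, which encodes arginase, differed by −0.51 (limma adjusted p = 0.341).

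Where both were called in the same direction, the values were close for some genes. CG6000 alone fell by 0.87 against 0.82 for the probe set that also names the noncoding RNA CR44097. ScpX fell by 0.63 alone and by 0.87 with CG17597, and D2hgdh by 0.63 alone and by 0.91 with Pgd. CG5946 fell by 1.02 alone and by 0.53 with zetaCOP, a subunit of the coatomer of transport vesicles, while zetaCOP alone differed by −0.01 (limma adjusted p = 0.982). Alone, fabp differed by −0.28 (limma adjusted p = 0.196) and fzr by −0.38 (limma adjusted p = 0.351).

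Some shared probe sets showed no call although a gene they name was called by itself, in 8 members. The probe set of shn and Cyp6v1 had 295.5, 359.6 and 283 against 302.3, 310 and 477.1 (log2 difference −0.18; limma adjusted p = 0.568), with overlapping groups. Alone, shn, a zinc finger transcription factor of BMP signalling, rose by 1.10 ± 0.18 (SE; limma adjusted p = 0.00640), and Cyp6v1, a cytochrome P450, fell by 1.21 ± 0.17 (SE; limma adjusted p = 0.00396). On their own probe sets the genes thus differed in opposite directions. That of Cyp6v1 passed the mean through the sucrose group only (29.6 after glucosamine against 90.2), so its direction was partly set by the choice. Alone, teq, a gene of a secreted serine protease, had 1022, 1408 and 1104 against 2482, 2954 and 2682 and fell by 1.20 ± 0.18 (SE; limma adjusted p = 0.00524), while the probe set it shares with RhoU differed by 0.08 (limma adjusted p = 0.758). Alone, kra, a translation regulator gene, had 2687, 1842 and 3359 against 965.6, 920.2 and 895.2 and rose by 1.45 ± 0.23 (SE; limma adjusted p = 0.00666), while the brighter probe set it shares with CG10089 differed by 0.42 (limma adjusted p = 0.132).

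Several members name the copies of a multi-copy family. For Hsp70, the main heat-inducible chaperone of the fly, 3 shared probe sets passed the mean. Hsp70Aa/Hsp70Ab had 6505, 3920 and 4499 in the glucosamine arrays and 7468, 1103 and 5449 in the sucrose arrays (log2 difference 0.45 ± 0.67, SE; limma adjusted p = 0.656). The probe set of Hsp70Ba, Hsp70Bb, Hsp70Bbb and Hsp70Bc had 7818, 3923 and 4082 against 9106, 1339 and 5965 (0.26 ± 0.68, SE; limma adjusted p = 0.810). That of Hsp70Bc/Hsp70Bb had 1783, 775.7 and 872.2 against 2188, 298.4 and 1612 (0.06 ± 0.72, SE; limma adjusted p = 0.965). In all 3 the groups overlapped, sucrose replicate 2 was the lowest and sucrose replicate 1 the highest of the 6 arrays. The same arrays were at both ends in 4 of 14 single-gene probe sets of the heat shock class, those of Hsp68 (370 lowest, 4612 highest), Hsp26 (972, 5237), Hsp27 (387, 2233) and DnaJ-1 (3295, 7150). They were not in the other 10, among them Hsp60A, which was highest in sucrose replicate 2, and the constitutive Hsc70-4, with 13505 to 18260. These chaperone genes were named after their values were seen. Of the 8 shared and 14 single-gene probe sets of the heat shock class none passed.

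Core histone genes lie in a tandem array of many copies, and 3 members measured them. The H4 probe set 1627419_at, which names 19 genes including His4r, had 1410, 1678 and 1802 after glucosamine and 2717, 2255 and 2748 after sucrose. Its groups did not overlap, and the log2 difference was −0.66 ± 0.17 (SE; limma adjusted p = 0.0308). This probe set passed in 10 of 17 alternatives, and in only 2 of those with 1 array left out. The other H4 probe set, 1627631_s_at, had 5972, 7989 and 6874 against 9793, 8750 and 9027 (−0.41 ± 0.17, SE; limma adjusted p = 0.111). The H2A probe set, which names 20 genes, had 617.8, 790.4 and 700.2 against 466.6, 709.8 and 146.6 (0.89 ± 0.51, SE; limma adjusted p = 0.230). So 1 of 3 fell, and the H2A groups overlapped with a wide spread among the sucrose arrays. The single-gene histone probe sets of His2Av (0.31; limma adjusted p = 0.561) and BigH1 (−1.52; limma adjusted p = 0.191), a linker histone of the female germ line, were not called. BigH1 was highest in sucrose replicate 1, at 687.2, the array with the high ovary markers. Whether ovary cells had a part in this value was not tested.

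Cyp12d1-d and Cyp12d1-p are nearly identical copies of a mitochondrial cytochrome P450 gene that xenobiotics induce. Their probe set had 345.2, 477 and 462 against 1725, 1251 and 794.5 and fell by 1.46 ± 0.30 on the log2 scale (SE; limma adjusted p = 0.0133). The lowest sucrose array was above the highest glucosamine array, and it passed in 14 of 17 alternatives. Amy-p/Amy-d, the pair of alpha-amylase genes, had 89.2, 861.3 and 100.6 against 229, 125.3 and 164.6 (log2 difference 0.26; limma adjusted p = 0.830). Glucosamine replicate 2 was thus alone at the top, whereas the single-gene probe sets of digestive serine proteases summed to 13295 in glucosamine replicate 3 and 307 to 1404 in the other arrays. That class was a pattern of gene names and took in Ser7, which was highest in sucrose replicate 2. Ser7 had 201, 429 and 238.1 against 444.8, 682.4 and 507, a large part of the sums outside glucosamine replicate 3. For Sdic2, Sdic3, Sdic4 and sw, the copies of a sperm dynein chain and the gene they came from, the values ran from 932.2 to 1166 over all arrays (log2 difference 0.03; limma adjusted p = 0.918). Ubi-p5E/CG11700, of polyubiquitin, ran from 9900 to 11530 (log2 difference 0.10; limma adjusted p = 0.613).

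Probe sets of genes known from the male germ line passed the mean, although the labels give females. ProtA/ProtB, of the protamines that pack sperm DNA, had 99.1, 287.3 and 53.7 against 383.5, 224.9 and 100.4 (log2 difference −0.73 ± 0.62, SE; limma adjusted p = 0.413). The Stellate probe set, which names 13 genes, had 100.3, 205 and 178.7 against 260.6, 225.5 and 154.7 (−0.40; limma adjusted p = 0.353). The groups overlapped in both, with sucrose replicate 1 the highest of the 6 arrays. The class was a pattern of gene names, and of its 12 single-gene probe sets 4 fell and none rose. Those that fell were Mst84Db and Mst84Dd, genes of the male germ line, Mst57Da, a gene of the male accessory gland, and Ssl1, of a general transcription factor, which is no male gene. Mst57Da had 43.0, 31.7 and 7.88 after glucosamine and 125, 67.7 and 106.3 after sucrose. It passed the mean through the sucrose group only, so its fall was partly set by the choice. The summed intensity of the 12 was 14545 in sucrose replicate 1, 7755 and 4324 in the other sucrose arrays and 2974, 6446 and 2561 in the glucosamine arrays. A large part of it was Mst84Dc, with 1188, 2820 and 1038 after glucosamine and 8821, 2408 and 1532 after sucrose. Mst84Dc was not called (limma adjusted p = 0.275). Sucrose replicate 1 was the highest array for 8 of the 12. The origin of these transcripts was not tested.

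The other classes were patterns of gene names too and do not hold every gene of a function. By its pattern, 1 of 4 members of translation and the ribosome rose and none fell. Of 171 single-gene probe sets of the same pattern 12 rose and 25 fell. The member that rose, CG34164/RpL7-like, had passed the mean through the glucosamine group only. RpL7-like alone differed by 0.05 (limma adjusted p = 0.871). Of 4 members with names of respiratory chain subunits or import proteins 2 fell and none rose, with a median log2 difference of −0.44. Of 77 single-gene probe sets of the same pattern 35 fell and none rose, with a median of −0.54, so the falls were not particular to shared probe sets. By their names the pattern also took in Timp (0.47 and 0.42) and Tomosyn (0.50), which are no genes of the respiratory chain or of import. They were not called. Other members with a mitochondrial gene lay outside the pattern, such as DIP-epsilon/scu, fabp/sea and Coq4/frc. Besides CG18809/COX6B and ATPsynG/beat-Vb, the members of the pattern were CG40472/ND-AGGG (−0.33; limma adjusted p = 0.161) and CG42497/Tim10 (−0.23; limma adjusted p = 0.377). Of 5 members with noncoding RNA genes 1 fell and none rose, and of 20 single-gene probe sets of that pattern 1 fell and none rose. Neither of 2 members with immune genes passed, nor did the 1 with a cuticle gene, Obp57d/Cpr57A (0.92; limma adjusted p = 0.0601), although its 3 glucosamine values of 187.1, 213 and 94.33 were above the sucrose values of 91.18, 61.05 and 76.18. No member named a digestive serine protease.

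Of the 165 members that were not called, 127 had a log2 difference between −0.5 and 0.5 and 6 had one over 1 in size. A few of these rested on 1 array. The genes CG42662 and CG30080, which share a span, gave 3059 in glucosamine replicate 2 and 8.996 to 20.6 in the other 5 arrays on 1627759_at, and 1845 against 12.2 to 22.1 on 1628387_s_at (limma adjusted p = 0.314 and 0.319). CG18858/CG31683 gave 4012 in glucosamine replicate 1 and 176.4 to 262.9 in the others on 1629877_at (limma adjusted p = 0.254), whereas its other probe set, 1641570_s_at, had 8704, 10133 and 8537 against 5121, 5238 and 4406 and rose by 0.89. SPH93/RSG7 had 154.5, 653.8 and 14.5 against 6.69, 6.003 and 5.842 (log2 difference 2.77; limma adjusted p = 0.0759). Met75Ca/Met75Cb, a tandem pair, had 7.06, 240.3 and 12.7 against 195.2, 491.4 and 1582, with the largest negative difference of all members (−3.33 ± 1.05, SE; limma adjusted p = 0.0562). Its groups overlapped, since glucosamine replicate 2 lay above sucrose replicate 1.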

How the data were processed

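Biotin-labelled cRNA from 6 samples was hybridised to single-channel Affymetrix arrays, per the labels' protocols. The authors deposited 1 linear intensity per probe set and array. Probe summary, background correction and normalization were not given in the sources used here. Upper quartiles were alike, so values were used as deposited. No detection call or scan batch was used.

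Genes were named from the platform annotation, and their positions relative to each other from RefSeq (assembly Release 6 plus ISO1 MT), matched by Entrez identifier. Protein identity between copies was planned but not computed, and no sequences are shown, since no sequence table was used.

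All 7660 probe sets with a mean over 50, controls left out, entered 1 fit on log2(intensity + 16) (limma 3.58.1, lmFit and eBayes; R 4.3.3). P-values were two-sided, adjusted by Benjamini and Hochberg's method across the 7660, with a threshold of 0.05. Named were the 12 largest rises and 12 largest falls past the threshold without overlap, up to 4 members with the smallest p in each of 13 classes defined by patterns of gene names, and single-gene probe sets of those genes. All other members and genes in the text, among them Hsp70, Pif1A/Pif1B, Qtzl/escl and the members that rested on 1 array, were named after their values were seen. Members, classes and lists were chosen with earlier results of these data known. The fit was tested on simulated data of 7660 probe sets, 50 of them changed at each of 4 sizes. It recovered 4% of changes of 0.5 on the log2 scale, 42% of 1, 100% of 2 and 98% of 4, with 11 false calls. In the real data 2026 were called, far more than were changed here, so these shares do not give the recovery in the real data. Same-numbered replicates of both groups had correlations of 0.02, −0.15 and −0.11 in their deviations from group means. Those with different numbers ran from −0.13 to 0.26. The values showed no pairing by number, but with 3 arrays a group they cannot settle whether there was one. The main fit used none.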

Additional observations from a re-analysis of the deposited data

How the results depend on the processing

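Over 17 alternatives (quantile normalization, median centring, cyclic loess, no filter, a mean over 100, pseudocounts of 1 and 64, a variance trend with a robust prior, array weights, the replicate block, each array left out, and the pair of glucosamine replicate 3 with sucrose replicate 1 left out together), 0 of 29 named members past the threshold changed sign, 15 passed in every alternative and 22 with each array left out in turn. The 15 and the 22 include ovm/CG31975, CG30160/Tsp42Eb and the CG43998/CG43999 probe set 1630615_s_at, which passed the mean through the glucosamine group only. CG34164/RpL7-like, among the 29, passed it in the same way. For these members the sign and the passes were partly set by the choice and support nothing by themselves. Of 24 named members not past the threshold, 7 changed sign in some alternative and 4 passed in at least 1. The 28 rises and 27 falls among the members became 17 and 7 with both arrays left out, where fewer arrays were fitted, and the falls were 16 with the replicate block, where 1225 of all probe sets passed in place of 2026; with both arrays left out 762 did. With 1 array left out the rises ranged from 19 to 27, the falls from 15 to 22 and all calls from 967 to 1665. The 12 pairs of a called member and a single-gene probe set with the same sign became 7 with no filter, 6 with the replicate block and 3 with both arrays left out, and ranged from 3 to 12 without 1 array, in part because fewer members were called. Under the mean over 100, 181 members were left, and 21 of them rose and 28 fell. The split of calls was 50.9% rises, 42.9% under the mean over 100 and 70.8% with both arrays left out. The slide and background alternatives were not run, since the value table holds neither. The number of arrays, and for dim members the signal over background, limits every value.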
